A study of Mus musculus with 21 samples.

Results

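The 10 genes described here are Foxo1, Foxo3 and Foxo4, the hormone gene Igf1, the binding-protein genes Igfbp4 and Igfbp5, the receptor genes Igf1r and Insr, and the adaptor genes Irs1 and Irs2. They were taken as a fixed list of symbols, each represented by the probeset with the highest mean among those that carry that symbol alone. All 10 were among the 19938 genes with such a probeset, and all 10 were among the 13956 bright enough to be tested, a filter that removed genes whose mean lay under log2 6.45. Insr and Irs1 each have a second probeset, and the other 8 genes have 1.

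RNA from sorted mouse muscle stem cells (satellite cells) was measured on Affymetrix whole-transcript arrays of the Mouse Gene 1.0 ST type. There were 12 pools on 21 arrays, each pool made of 3 to 4 mice aged 3 to 5 months, and the pool was the unit of analysis. Every mouse, wild type (WT) included, carried Pax7CreER/+ and Rosa26REYFP/+, and the cells were sorted as YFP+ at least 2 weeks after tamoxifen. The Cre is driven by Pax7, so that a floxed allele is removed in Pax7-expressing cells and their descendants and not in the rest of the mouse. WT quiescent cells from noninjured mice (WT QSC) had 3 pools, and WT cells from the limb opposite to a BaCl2 injury, taken 2.5 days later (contralateral cells, WT CSC), had 3 pools. The other 6 groups had 1 pool each on 2 arrays: WT CSC at 28 days, TSC1flox/flox QSC (TSC1 KO), Rptrflox/flox QSC and 2.5-day CSC (Rptor KO), and cMetflox/flox QSC and 2.5-day CSC (cMet KO). The strain is given as mixed C57BL6, and as C57BL6 mixed with FVB for the cMet pools alone, so that strain and genotype cannot be told apart there. A single pool has no replicate check: its test borrows the spread between the WT pools, and effects of genotype or time and of the single pool cannot be told apart. Nothing in the labels says how the pools of a group were made separate beyond their biological replicate numbers.

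Insulin and insulin-like growth factor 1 (IGF1) bind the receptors INSR and IGF1R, which recruit the adaptors IRS1 and IRS2 and switch on PI3K and the kinase AKT. AKT activates the kinase complex mTORC1 by restraining its inhibitor, the TSC1/TSC2 complex, and it also phosphorylates the FoxO transcription factors, which then leave the nucleus. mTORC1 in turn damps the pathway through its target S6K and the adaptors, and FoxO factors can raise Insr and Irs2 transcription, so that the axis contains feedback in both directions. In muscle stem cells, FoxO activity is known for supporting quiescence and self-renewal. The study asks whether a distant injury puts resting stem cells on alert through mTORC1, with TSC1 loss expected to raise mTORC1 activity and loss of Rptor, the raptor subunit, expected to lower it. Arrays measure RNA: phosphorylation, nuclear exit and secretion are outside these data.

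Some facts of the series bear on all values. Log2 array medians ran from 7.03 to 7.21, and technical arrays of a pool correlated at 0.957 to 0.996 over all 35556 probesets. The second arrays of WT CSC pool 1, Rptor KO QSC and Rptor KO CSC differed from their first arrays in like manner, with correlations of 0.621 to 0.687 between those differences against 0.258 for the next pair. The satellite cell label was checked against Pax7, at 10.27 to 12.10 across the 12 pools, and Cdh15, at 10.82 to 11.64. Markers of other cells were also measured in the sorted pools, among them the endothelial Cdh5, at 8.59 to 11.45. The fibro-adipogenic Dcn had a median of 11.87 over the pools, above the medians of Pax7 (11.21) and Cdh15 (11.14). The other such markers looked at here had lower medians, from 6.94 for Ptprc to 10.35 for Cdh5. The levels of Pax7 and Cdh15 thus do not show that the pools were free of other cells. The arrays have no detection call here, so that the absence of a marker cannot be read. Tsc1 was 0.40 ± 0.24 (SE) log2 units lower in TSC1 KO QSC than in WT QSC (limma, adjusted p = 0.641). Rptor differed by -0.07 ± 0.27 (SE) in Rptor KO QSC (limma, adjusted p = 0.961), a value that turned to 0.09 without WT QSC pool 1. Against WT CSC at 2.5 days it differed by -0.73 ± 0.27 in Rptor KO CSC (limma, adjusted p = 0.180). Met differed by 0.24 ± 0.19 (SE) in cMet KO QSC from WT QSC, which did not pass. In cMet KO CSC it differed by -0.68 ± 0.19 from WT CSC at 2.5 days (limma, adjusted p = 0.0662). The probesets sum probes along whole transcripts, and which exons were removed is not given in the sources used here, so that these levels check none of the genotype labels.

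The promoters of the genes that passed the test in alert WT cells are shown first, together with that of Irs1, because Irs1 and Irs2 alone among the members held a FoxO-type motif. RefSeq sequences of build GRCm38.p6 were at hand for 8 of the 10 genes; Insr and Foxo4 are only named. The 250 bases before the annotated start of transcription were searched on both strands for the DAF-16 family binding element GTAAACA and for CAAAACA, the core of the insulin response sequence. Matches did not overlap in the members' promoters. GTAAACA stood in 0 of the 8 members' promoters and in 3.17% of 32851 promoters. CAAAACA stood in 2 of 8, or 25.0%, against 5.56% of all promoters. Capitals below mark this motif, which reads TGTTTTG because it lies on the opposite strand.
Irs2, chr8:11008930-11009179, minus strand: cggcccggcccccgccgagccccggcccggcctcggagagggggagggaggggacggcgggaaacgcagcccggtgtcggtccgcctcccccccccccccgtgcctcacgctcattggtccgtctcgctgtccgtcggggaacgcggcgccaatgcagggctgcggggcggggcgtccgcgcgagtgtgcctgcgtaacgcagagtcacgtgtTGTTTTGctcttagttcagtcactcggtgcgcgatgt
Irs1, chr1:82291440-82291689, minus strand: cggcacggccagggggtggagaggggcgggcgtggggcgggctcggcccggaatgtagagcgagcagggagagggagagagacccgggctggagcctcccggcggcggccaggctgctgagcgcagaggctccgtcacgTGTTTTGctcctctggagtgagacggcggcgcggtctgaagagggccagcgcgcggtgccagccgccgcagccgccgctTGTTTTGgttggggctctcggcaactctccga
Foxo1, chr3:52268087-52268336, plus strand: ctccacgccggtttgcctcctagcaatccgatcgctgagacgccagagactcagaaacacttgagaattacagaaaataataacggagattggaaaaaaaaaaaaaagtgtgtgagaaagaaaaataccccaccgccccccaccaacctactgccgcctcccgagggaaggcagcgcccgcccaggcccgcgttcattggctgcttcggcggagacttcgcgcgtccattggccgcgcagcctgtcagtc
Igf1, chr10:87860861-87861110, plus strand: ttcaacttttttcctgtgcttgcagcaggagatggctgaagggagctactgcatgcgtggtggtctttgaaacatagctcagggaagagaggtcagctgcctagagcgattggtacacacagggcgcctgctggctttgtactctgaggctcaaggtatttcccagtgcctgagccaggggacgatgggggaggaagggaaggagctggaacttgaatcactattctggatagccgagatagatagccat
Igfbp4, chr11:99040994-99041243, plus strand: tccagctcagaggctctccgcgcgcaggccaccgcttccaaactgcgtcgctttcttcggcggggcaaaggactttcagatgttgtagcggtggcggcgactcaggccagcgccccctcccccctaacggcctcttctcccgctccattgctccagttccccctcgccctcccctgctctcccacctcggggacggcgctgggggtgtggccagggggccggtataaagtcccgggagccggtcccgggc
The Irs2 promoter held 1 copy, which starts 37 bases before the start of transcription. The Irs1 promoter held 2 copies, at 111 and 32 bases before it. The promoters also differed in base composition: Igf1 had 52.8% G and C and 5 CpG dinucleotides, close to the medians of 52.4% and 6 over all promoters, whereas the Irs2 promoter had 72.8% and 34. A match describes these letters only, and no binding was measured.

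In WT cells opposite an injury, 4 of the 10 transcripts fell at 2.5 days and 0 rose. Those that fell were Igf1 (2.65-fold), Irs2 (1.81-fold), Igfbp4 (1.75-fold) and Foxo1 (1.65-fold), so that a ligand, a binding protein, an adaptor and a transcription factor of the axis were each represented. Of all 13956 genes, 18.0% passed the test (limma, Benjamini-Hochberg adjusted p under 0.05), 7.36% lower and 10.6% higher. All 10 members had a negative difference, with a median of -0.50 on the log2 scale, beside a median of -0.05 and 7925 negative differences over all genes tested. For 5 members the 3 CSC pools did not overlap the 3 QSC pools, which was so for 37.9% of all genes. Less RNA per cell cannot be told apart from fewer cells of a type in these pools, for these results as for all that follow.

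**Figure D1:**
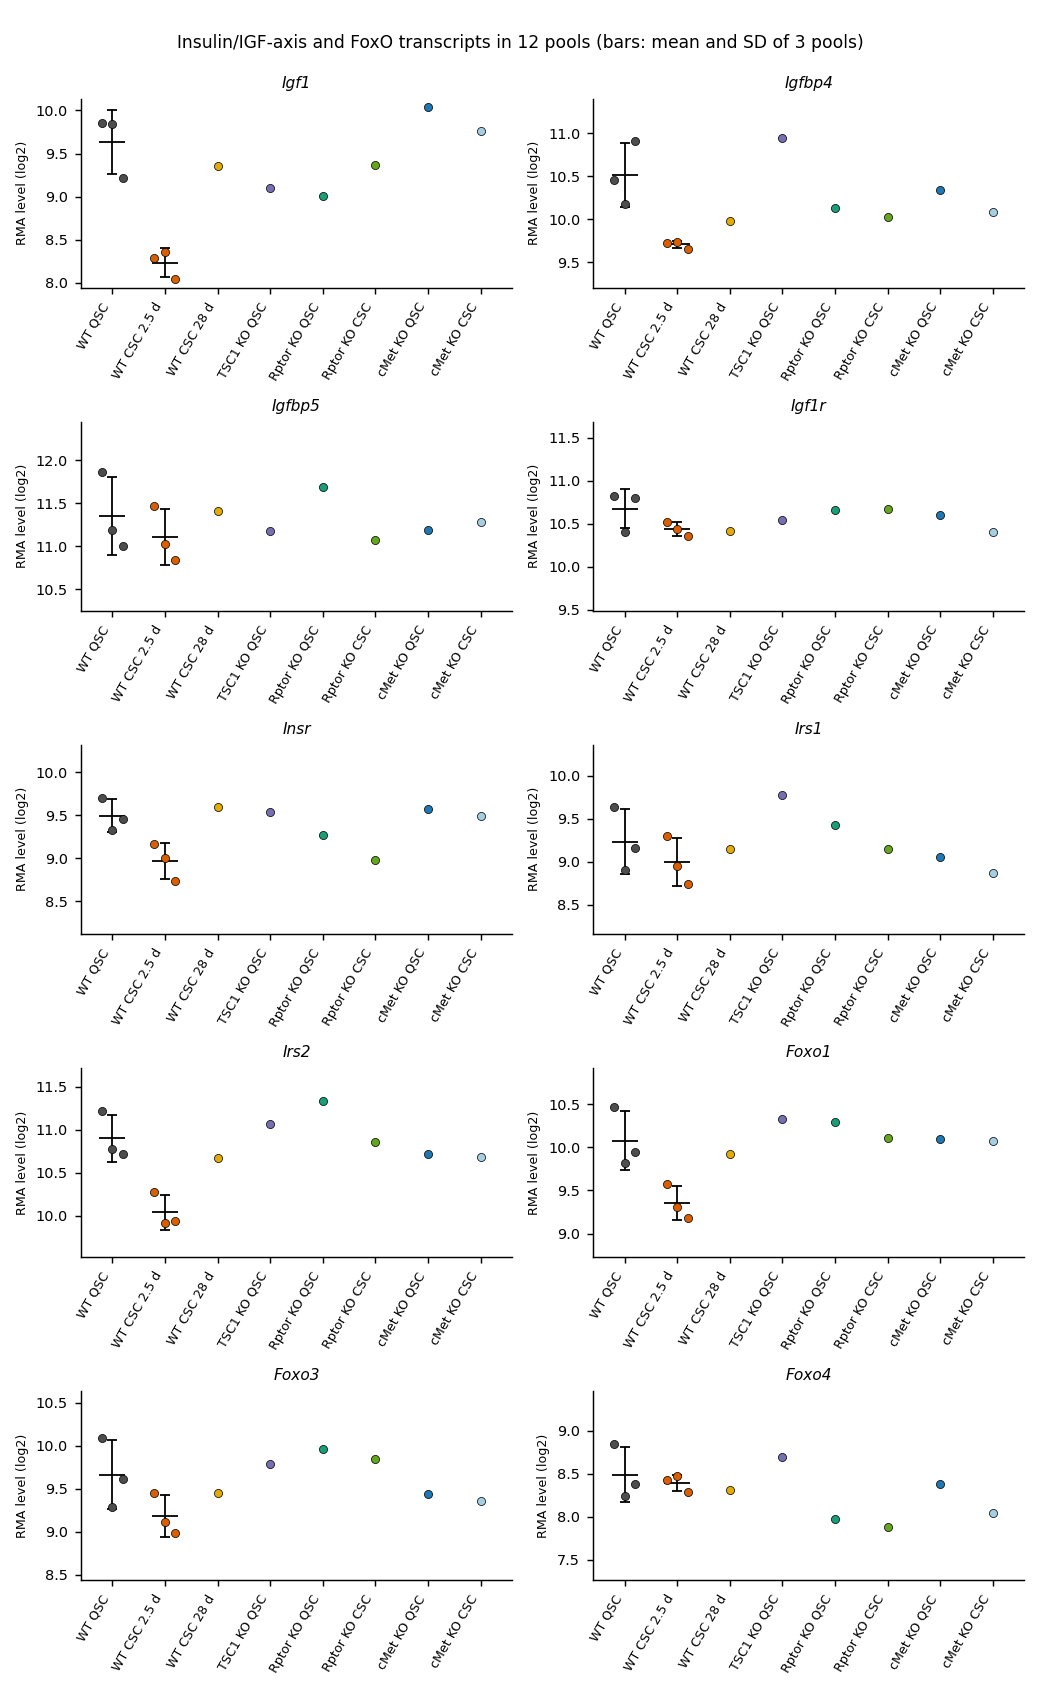
Log2 RMA level of each of the 10 genes in the 12 pools, by group, with the same number of log2 units in each panel; points are pools and bars are the mean and SD of the 3 WT pools. Igf1 shows the widest range (2.00) and Igf1r the smallest (0.46), and the WT CSC pools at 2.5 days are the lowest of all pools for Igf1, Irs2, Foxo1 and Igfbp4.

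Igf1 encodes the growth factor itself. Its log2 level was 9.86, 9.84 and 9.21 in the 3 WT QSC pools and 8.29, 8.36 and 8.04 in the 3 WT CSC pools at 2.5 days. The 28-day WT CSC pool was at 9.36. The pools of the other genotypes were at 9.10 in TSC1 KO QSC, 9.00 in Rptor KO QSC, 9.36 in Rptor KO CSC, and 10.04 (QSC) and 9.76 (CSC) in the cMet knockout. The 3 WT CSC pools were thus lower than each of the other 9 pools, and the cMet KO QSC pool was the highest. In WT the difference of CSC from QSC was -1.41 ± 0.19 (SE, n = 3 pools against 3; limma, adjusted p = 0.00201). It stayed past the threshold in all 6 fits that left out 1 WT pool, with adjusted p between 0.00107 and 0.0135. Ordered by group level, the 28-day, TSC1 KO and both Rptor KO pools lay between 9.00 and 9.36, apart from each other by less than the SD of 0.37 between WT QSC pools.

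Igfbp4 encodes a secreted protein that binds IGFs and limits their access to the receptor. Its log2 level was 10.46, 10.18 and 10.91 in WT QSC and 9.73, 9.74 and 9.66 in WT CSC at 2.5 days. It was 9.97 in the 28-day pool, 10.94 in TSC1 KO QSC, 10.13 in Rptor KO QSC, 10.03 in Rptor KO CSC, and 10.34 (QSC) and 10.09 (CSC) in the cMet knockout. The WT CSC pools were the 3 lowest and lay within 0.08 of each other, while TSC1 KO QSC was highest, beside the highest WT QSC pool. The WT difference was -0.81 ± 0.18 (SE, n = 3 against 3; limma, adjusted p = 0.0180). It missed the threshold without any 1 of the CSC pools, with adjusted p of 0.0590, 0.0614 and 0.0717 without pool 1, 2 or 3. The 2 arrays of Rptor KO CSC stood at 9.73 and 10.33, farther apart than those of any other pool for this gene.

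Igfbp5 encodes a binding protein known both to hold and to present IGFs in muscle. Its log2 level was 11.86, 11.18 and 11.00 in WT QSC and 11.46, 11.02 and 10.84 in WT CSC at 2.5 days, so that the groups overlapped. The single pools ran from 11.07 in Rptor KO CSC to 11.68 in Rptor KO QSC, and neighbours in the order of the 8 groups differed by less than the SD of 0.45 between WT QSC pools. The WT difference was -0.24 ± 0.24 (SE), with a 95% interval of -0.79 to 0.31 (limma, adjusted p = 0.540).

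Igf1r and Insr encode the receptor tyrosine kinases for IGF1 and insulin. Igf1r was at 10.82, 10.41 and 10.80 in WT QSC and 10.52, 10.44 and 10.36 in WT CSC at 2.5 days. Its other 6 pools ran from 10.41 to 10.67. The WT groups overlapped, and the difference of -0.24 ± 0.15 (SE) had a 95% interval of -0.57 to 0.09 (limma, adjusted p = 0.308). Among the members this was the transcript with the smallest range over the 12 pools.

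Insr was at 9.70, 9.33 and 9.46 in WT QSC and 9.16, 9.01 and 8.74 in WT CSC at 2.5 days. It was 9.59 in the 28-day pool, 9.54 in TSC1 KO QSC, 9.27 in Rptor KO QSC, 8.98 in Rptor KO CSC, and 9.57 (QSC) and 9.49 (CSC) in the cMet knockout. The WT pools did not overlap, and Rptor KO CSC was the single pool that lay among the WT CSC pools. The 28-day, TSC1 KO and both cMet KO pools lay inside the range of WT QSC. The WT difference of -0.53 ± 0.16 (SE, n = 3 against 3) missed the threshold (limma, adjusted p = 0.0501). It was past it with quantile normalization (0.0234), the filter at the 50th percentile (0.0498), the pool as a random block (0.0283), a replicate block (0.0360) and without WT QSC pool 2 (0.0405). It missed it in 5 of the 6 fits without 1 WT pool, with adjusted p up to 0.194 (limma). Of the 11 other alternatives it missed it in 7, with adjusted p up to 0.123. The second Insr probeset gave -0.33. The Rptor KO CSC level is the mean of 2 arrays at 9.26 and 8.70, which differ by about as much as the WT groups do.

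Irs1 and Irs2 encode the adaptors that couple both receptors to PI3K. Irs2 was at 11.21, 10.78 and 10.71 in WT QSC and 10.28, 9.91 and 9.94 in WT CSC at 2.5 days. The 28-day pool was at 10.68, TSC1 KO QSC at 11.06, Rptor KO QSC at 11.33, Rptor KO CSC at 10.86, cMet KO QSC at 10.72 and cMet KO CSC at 10.68. The 3 WT CSC pools were again lower than the other 9, and Rptor KO QSC was the highest pool. The WT difference was -0.86 ± 0.17 (SE, n = 3 against 3; limma, adjusted p = 0.0108), and adjusted p was 0.0536 without WT CSC pool 2 and 0.0544 without pool 3. From 10.68 to 10.86 the 28-day, cMet KO and Rptor KO CSC pools were closer together than the SD of 0.27 between WT QSC pools.

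Irs1 did not separate the WT groups. It was at 9.64, 8.90 and 9.16 in WT QSC and 9.30, 8.96 and 8.75 in WT CSC at 2.5 days, and the difference of -0.23 ± 0.21 (SE) had a 95% interval of -0.72 to 0.25 (limma, adjusted p = 0.498). The 28-day pool and Rptor KO CSC were both at 9.15, Rptor KO QSC at 9.43, cMet KO QSC at 9.05 and cMet KO CSC at 8.87. TSC1 KO QSC, at 9.78, was the highest of the 12 pools. The second Irs1 probeset was dim, with a mean of 5.70, under the filter.

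The FoxO genes encode the forkhead factors at the end of the axis. Foxo1 was at 10.47, 9.82 and 9.95 in WT QSC and 9.58, 9.31 and 9.18 in WT CSC at 2.5 days. It was 9.92 in the 28-day pool, 10.33 in TSC1 KO QSC, 10.29 in Rptor KO QSC, 10.11 in Rptor KO CSC, and 10.10 (QSC) and 10.07 (CSC) in the cMet knockout. The 3 WT CSC pools were the lowest, and the 6 single pools lay inside the range of WT QSC. The WT difference was -0.72 ± 0.19 (SE, n = 3 against 3; limma, adjusted p = 0.0316). Adjusted p was 0.0588 without WT QSC pool 1, 0.106 without WT CSC pool 2, 0.123 without pool 3 and 0.0569 with each array centred on its median, so that its call was lost in 4 fits, against 3 for Igfbp4, 2 for Irs2 and 0 for Igf1.

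Foxo3, the family member best known for holding stem cells in quiescence, was at 10.10, 9.29 and 9.61 in WT QSC and 9.46, 9.12 and 8.98 in WT CSC at 2.5 days. The groups overlapped, and the difference of -0.48 ± 0.21 (SE) had a 95% interval of -0.97 to 0.0049 (limma, adjusted p = 0.160). The single pools ran from 9.36 in cMet KO CSC to 9.96 in Rptor KO QSC, and the 2 arrays of Rptor KO CSC stood at 9.61 and 10.09. Foxo4 was at 8.85, 8.24 and 8.38 in WT QSC and 8.43, 8.47 and 8.29 in WT CSC at 2.5 days, a difference of -0.09 ± 0.17 (SE; limma, adjusted p = 0.749). Its lowest pools were those of the Rptor knockout, at 7.97 in QSC and 7.88 in CSC, and TSC1 KO QSC was at 8.70. The differences of Foxo1, Foxo3 and Foxo4 from each other were not tested.

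**Figure D2:**
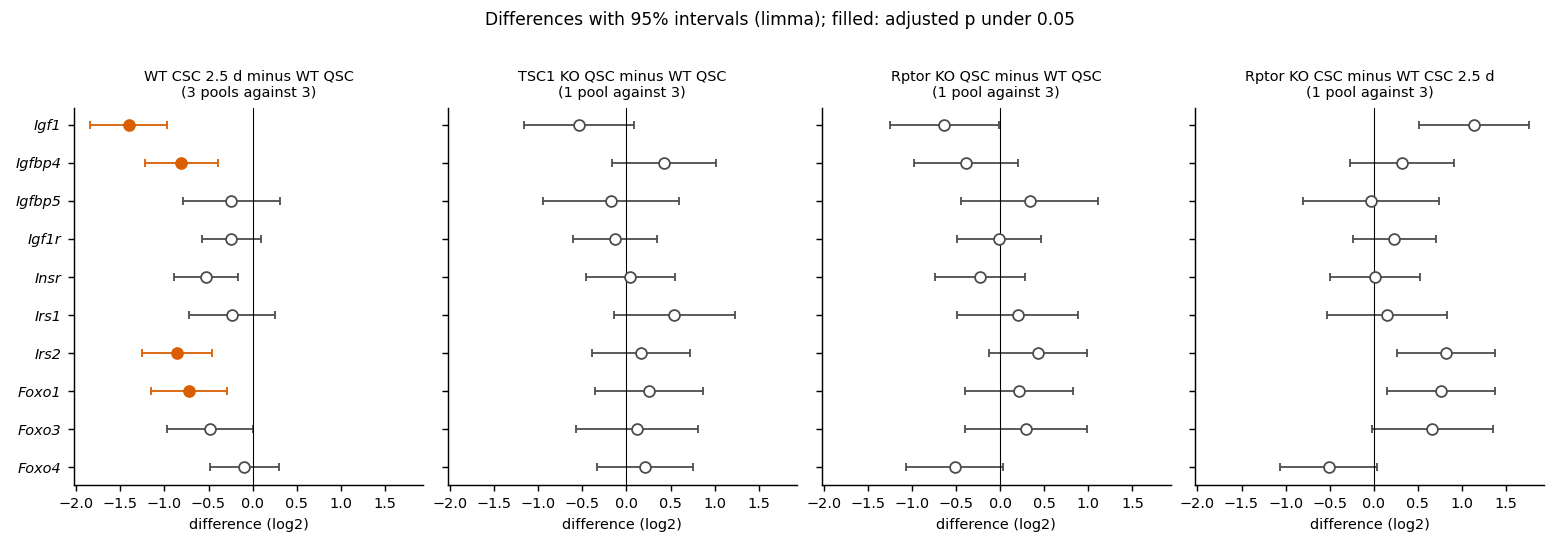
Log2 differences of the 10 genes with 95% intervals from limma in alert WT cells, in the TSC1 and Rptor knockouts at rest and in contralateral Rptor knockout cells; filled points have an adjusted p under 0.05. Igf1, Igfbp4, Irs2 and Foxo1 are filled in the WT comparison, and 0 genes are filled in the 3 comparisons of a single pool.

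Of 34 listed genes that FoxO factors are known to induce, 32 were tested in the same WT cells: 10 fell, 2 rose and 20 did not pass. Over all genes 18.0% passed, 7.36% lower and 10.6% higher. The list's median difference was -0.34, beside -0.05 for all genes. Txnip, an inhibitor of thioredoxin that is induced by FoxO1 and by glucose, fell by 1.30 ± 0.18 (SE) on the log2 scale, or 2.46-fold (limma, adjusted p = 0.00187). Gadd45a, a stress and growth arrest gene, fell by 0.90 ± 0.13 (limma, adjusted p = 0.00276). S1pr1, a receptor of sphingosine 1-phosphate, fell by 0.96 ± 0.15 (limma, adjusted p = 0.00353). Prdx3, a mitochondrial peroxidase, rose against the list's direction by 0.99 ± 0.13 (limma, adjusted p = 0.00177), and Bnip3, a mitophagy receptor, by 0.74 ± 0.14 (limma, adjusted p = 0.00934). Bnip3, Prdx3, Txnip, Gadd45a, S1pr1 and Gadd45b were past the threshold in all 6 fits without 1 WT pool. The count for the list fell from 12 to 7 without WT CSC pool 1, to 7 without pool 2 and to 6 without pool 3. Over all genes the count fell in the same fits from 2510 to 1280, 1274 and 1181. S1pr1 is also abundant in endothelial cells, whose markers were lower in these pools, as given below.

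**Figure D3:**
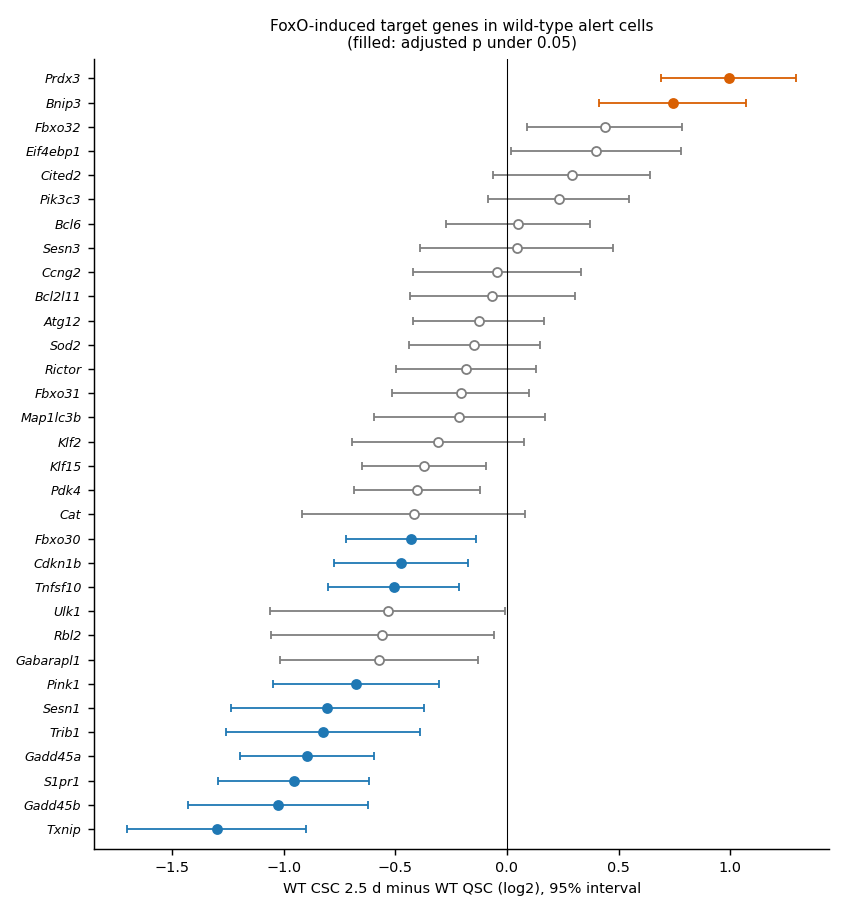
Log2 difference of WT CSC at 2.5 days from WT QSC with 95% intervals from limma for the 32 tested FoxO-induced target genes, ordered by size; blue points are lower and orange points higher at an adjusted p under 0.05. Txnip lies lowest at -1.30 and Prdx3 highest at 0.99.

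Of 16 tested regulators and cofactors of FoxO, 2 rose, beside 10.6% of all genes, a count from which nothing is read about the list: Skp2, the ubiquitin ligase subunit that targets FOXO1 for destruction, by 1.28 ± 0.14 (SE; limma, adjusted p = 0.000748), and Prmt1, which methylates FOXO1, by 1.12 ± 0.20 (limma, adjusted p = 0.00697). Both were past the threshold in all 6 fits without 1 WT pool. Skp2 is also a cell cycle gene that rises when cells leave quiescence.

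Of 18 tested genes for insulin and IGF receptors, ligands and binding proteins, 5 fell and 2 rose, beside the 7.36% lower and 10.6% higher of all genes. Besides Igf1 and Igfbp4 these included Igfbp7, a secreted IGF and insulin binding protein, which fell by 1.15 ± 0.13 (SE; limma, adjusted p = 0.000838). Htra1, a secreted protease that cleaves IGF binding proteins, fell by 0.77 ± 0.17 (limma, adjusted p = 0.0180, and 0.0658 without WT CSC pool 1). Among 23 adaptors and inhibitors 2 fell, a share near the 7.36% of all genes: Irs2 and Socs3, an inhibitor of cytokine and insulin signalling (-1.21 ± 0.20 SE; limma, adjusted p = 0.00504, and 0.0633 with the mean of its probesets). Of 22 genes of the PI3K-AKT module 3 passed, which stands beside 18.0% of all genes and is no result about the module. Pik3r1, the main regulatory subunit of PI3K, fell by 0.94 ± 0.21 (limma, adjusted p = 0.0150). Akt1 rose by 0.85 ± 0.19 (limma, adjusted p = 0.0175). Pik3cb, a catalytic subunit, rose by 0.57 ± 0.16 (limma, adjusted p = 0.0357). Pik3r1 and Akt1 missed the threshold without any 1 of the 3 WT CSC pools, with adjusted p from 0.0544 to 0.0698, and Pik3cb missed it without any 1 of the 6 WT pools, from 0.0562 to 0.0990.

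Markers of other cells moved in the same WT pools. Of 14 endothelial markers 10 were lower in WT CSC at 2.5 days, with a median of -1.17, and their mean level was 8.78 to 9.48 in WT QSC and 7.72 to 8.17 in WT CSC. Of 12 fibro-adipogenic markers 6 were lower (median -0.68; mean level 9.31 to 9.72 against 8.76 to 9.04), and of 11 pericyte and smooth muscle markers 6 were lower (median -0.83; group means 9.79 and 9.08). Satellite cell markers themselves had 5 of 13 lower (median -0.56; 11.20 to 11.72 against 10.80 to 10.92). Of 11 mature fibre markers 6 were higher (median 0.63), and 0 of 11 macrophage and 0 of 3 Schwann cell markers passed (limma; the same threshold). Igf1 and Igfbp4 are both known to be made by fibro-adipogenic and other stromal cells as well as by muscle stem cells, and the part of these cells in the falls of Igf1, Igfbp4, Irs2 and Foxo1 was not tested.

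**Figure D4:**
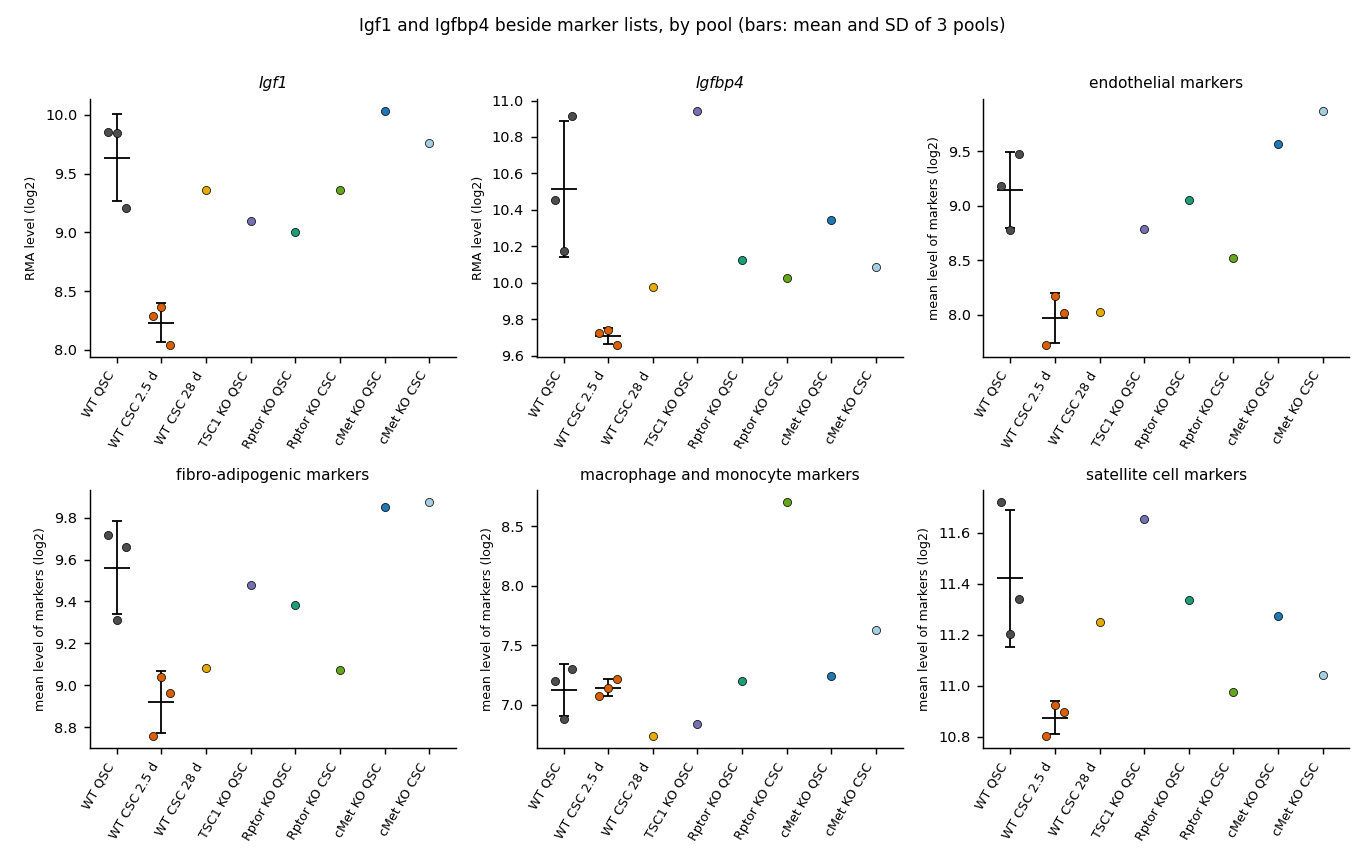
Log2 level of Igf1 and Igfbp4 beside the mean log2 level of 4 marker lists in the 12 pools, by group; points are pools and bars are the mean and SD of the 3 WT pools. Endothelial markers are lower in WT CSC at 2.5 days (7.72 to 8.17) than in WT QSC (8.78 to 9.48), and macrophage markers are highest in Rptor KO CSC (8.70).

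By 28 days after the injury, Igf1 was higher again in the WT pool than at 2.5 days, by 1.13 ± 0.27 (SE, n = 1 pool against 3; limma, adjusted p = 0.0380). It was the only member called, in a comparison where 8.38% of all genes passed and 2.06% were higher. Adjusted p was 0.0823, 0.0764 and 0.111 without WT CSC pool 1, 2 or 3. Insr was higher by 0.62 ± 0.22 (limma, unadjusted p = 0.0216, adjusted p = 0.128) and Irs2 by 0.63 ± 0.25 (limma, unadjusted p = 0.0299, adjusted p = 0.153). With Igf1, these were 3 members at an unadjusted p under 0.05, beside 24.2% of all genes (limma). For Foxo1, Insr, Irs2, Igf1 and Igfbp4 the 28-day pool lay above all 3 pools of 2.5 days. The share of all genes with a single pool so placed was not computed, here or below, and nothing is read from it. Against WT QSC, 0 members and 0% of all genes were called. At an unadjusted p under 0.05 the members numbered 0 again, beside 4.56% of all genes (limma). The widest difference there was that of Igfbp4, at -0.54 ± 0.26 (SE), with a 95% interval of -1.13 to 0.05. Of the listed genes, Skp2 (-1.45 ± 0.20), Prmt1 (-1.23 ± 0.29), Prdx3 (-0.87 ± 0.19) and Akt1 (-1.29 ± 0.27) were lower at 28 days than at 2.5 days, and Txnip (1.30 ± 0.25) and Pik3r1 (1.40 ± 0.29) were higher (limma, adjusted p from 0.00449 to 0.0337). Skp2 passed in all 6 fits without 1 WT pool, Txnip missed the threshold without WT CSC pool 3 (0.0534), and the other 4 missed it without any 1 of the WT CSC pools (0.0582 to 0.100), and Prmt1 also without the filter (0.0522). The endothelial marker mean in the 28-day pool was 8.02, inside the 7.72 to 8.17 of the 2.5-day pools. The fibro-adipogenic mean was 9.08 (8.76 to 9.04 at 2.5 days) and the pericyte and smooth muscle mean 9.24 (9.01 to 9.18), both above the 2.5-day pools, with 0 markers of these 3 lists called. Of 11 mature fibre markers tested 5 were lower than at 2.5 days (median -1.35). The mean level of all 14 listed, with those under the filter, was 7.29 against 8.34 to 8.71. The part of other cells in the Igf1 value was not tested.

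The knockouts at rest were set against WT QSC to describe the axis where mTORC1 activity is expected to differ. That activity was not measured here. In TSC1 KO QSC 0 of the 10 members differed from WT QSC past the threshold, in a comparison where 0.0143% of all genes passed. At an unadjusted p under 0.05 (limma) the members numbered 0, beside 8.82% of all genes. Irs1 was highest above WT, by 0.55 ± 0.30 (SE), with a 95% interval of -0.14 to 1.23 (limma, adjusted p = 0.620), and the TSC1 pool lay above all 3 WT pools. Irs2 differed by 0.16 ± 0.25 (interval -0.39 to 0.72), Insr by 0.05 ± 0.22 (-0.46 to 0.55) and Igf1r by -0.13 ± 0.21 (-0.60 to 0.34). Foxo1 differed by 0.25 ± 0.27 (-0.36 to 0.86), Foxo3 by 0.12 ± 0.30 (-0.57 to 0.81) and Foxo4 by 0.21 ± 0.24 (-0.34 to 0.76). Igf1 differed by -0.54 ± 0.27 (-1.16 to 0.08) and Igfbp4 by 0.43 ± 0.26 (-0.16 to 1.02). The TSC1 pool lay outside the range of the WT QSC pools for Irs1, Igf1 and Igfbp4, and inside it for the other 7 members. The share of all genes outside that range was not computed, so nothing is read from this count.

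In Rptor KO QSC, too, 0 of 10 members were called, beside 0.122% of all genes. Igf1 was lower by 0.63 ± 0.27 (SE; limma, unadjusted p = 0.0458, adjusted p = 0.432), the only member with an unadjusted p under 0.05. Of all genes 11.3% had such a p, so that nothing is read from this count. Irs2 differed by 0.43 ± 0.25 (interval -0.13 to 0.98), and its pool lay above all 3 WT QSC pools. Irs1 differed by 0.20 ± 0.30 (-0.49 to 0.88), Igf1r by -0.01 ± 0.21 (-0.49 to 0.46) and Insr by -0.23 ± 0.22 (-0.74 to 0.28). The second Insr probeset was higher by 0.26 in this pool, so that the probesets disagreed in sign. Foxo1 differed by 0.21 ± 0.27 (-0.40 to 0.82), Foxo3 by 0.29 ± 0.30 (-0.39 to 0.98) and Foxo4 by -0.52 ± 0.24 (-1.07 to 0.03). The TSC1 and Rptor comparisons share the 3 WT QSC pools, which are also the control of the alert state.

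Set directly against each other, TSC1 KO QSC and Rptor KO QSC differed in 1.55% of all genes and in 0 of the 10 members. Igfbp4 was higher in TSC1 KO by 0.82 ± 0.32 (SE; limma, unadjusted p = 0.0303, adjusted p = 0.207) and Foxo4 by 0.73 ± 0.30 (limma, unadjusted p = 0.0369, adjusted p = 0.229). These 2 of 10 members had an unadjusted p under 0.05, beside 19% of all genes. With the pool as a random block over all arrays, a fit that counts technical arrays as observations, Foxo4 passed (limma, adjusted p = 0.0461). Centring each array on its median moved the median of all genes from 0.05 to 0.16 in this comparison, so that differences of that size have no settled sign. Of the listed genes, Sesn1, a sestrin that FoxO induces and that restrains mTORC1, was higher in TSC1 KO by 1.89 ± 0.33 (limma, adjusted p = 0.0358), the single FoxO target called of 32. Pik3r3, a regulatory subunit of PI3K, was higher by 1.75 ± 0.29 (limma, adjusted p = 0.0306). Sesn1 missed the threshold without any 1 of the WT CSC pools (adjusted p = 0.0569, 0.0897 and 0.0806) and without the filter (0.0551), and Pik3r3 missed it without WT CSC pool 2 (0.0773) or pool 3 (0.0617). In TSC1 KO QSC against WT QSC the median of the 32 FoxO targets was 0.24, and in Rptor KO QSC it was -0.13, with 0 called in either. The other pathway lists also had 0 genes called in both of these comparisons. Between the TSC1 KO and Rptor KO pools all 11 mature fibre markers had a positive difference (median 1.22, 0 called). Pericyte and smooth muscle markers had a median of 0.42, with 1 of 11 higher. The part of these cells in the values of Igfbp4, Foxo4, Sesn1 and Pik3r3 was not tested.

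cMet KO QSC gave 0 members called and 0% of all genes (limma). It had 0 members and 1.33% of all genes at an unadjusted p under 0.05. Its widest difference was in Igf1, at 0.40 ± 0.27 (SE), with an interval of -0.22 to 1.02.

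The response of knockout cells to an injury elsewhere was described from contralateral and resting pools of the same genotype. In the Rptor knockout, CSC and QSC differed in 0 of 10 members, beside 0.258% of all genes (limma). At an unadjusted p under 0.05 the members numbered 0, beside 5.06% of all genes. Igf1 was 0.36 ± 0.34 (SE) higher in CSC, where WT cells had a fall. Between these pools macrophage markers had a median of 1.55, with 1 of 11 higher. Endothelial markers had a median of -0.51, with 0 of 14 called. The part of other cells in the Igf1 values was not tested. In the cMet knockout 0 members and 0% of all genes were called (limma), and Igf1 was lower by 0.28 ± 0.34 (SE). At an unadjusted p under 0.05 stood 0 members and 0.537% of all genes. Between the Rptor KO response and the WT response, 1 member and 4.44% of all genes had an unadjusted p under 0.05. The difference of the Rptor KO response from the WT response in Igf1 was 1.77 ± 0.39 (SE; limma, unadjusted p = 0.00135), but it did not pass over all genes (adjusted p = 0.380), where 0% passed. Over 10 alternatives and 6 fits without 1 WT pool its adjusted p ran from 0.00628, with the pool as a random block, to 1.00. The cMet KO response differed from the WT response by 1.13 ± 0.39 in Igf1 (limma, unadjusted p = 0.0170, adjusted p = 0.362) and by 0.81 ± 0.35 in Irs2 (limma, unadjusted p = 0.0437, adjusted p = 0.495), in a comparison where 0.158% of all genes passed. There, 2 members and 9.52% of all genes had an unadjusted p under 0.05. In the fit with pools as a random block, the cMet value for Igf1 had an adjusted p of 0.0392 (limma). That fit counts technical arrays as observations, those of the single pools included. Neither this value nor the 0.00628 therefore rests on more pools.

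Contralateral cells of the knockouts were also set against WT CSC at 2.5 days. In cMet KO CSC Igf1 was higher by 1.53 ± 0.27 (SE, n = 1 pool against 3; limma, adjusted p = 0.0147), the only member called, where 6.74% of all genes passed and 3.40% were higher. Without WT CSC pool 3 its adjusted p was 0.0555. At an unadjusted p under 0.05 stood 4 members, Igf1 included, and 23.4% of all genes (limma). Foxo1 (0.72 ± 0.27), Irs2 (0.63 ± 0.25) and Insr (0.52 ± 0.22) were above WT at unadjusted p from 0.0262 to 0.0469 and adjusted p from 0.148 to 0.206 (limma). Each of their cMet KO CSC levels lay above all 3 WT pools, as did those of Igf1 and Igfbp4, while Foxo4 lay below them. How many of all genes were so placed was not computed. FoxO targets had 5 genes higher and 1 lower of 32, led by Tnfsf10, the death ligand TRAIL (1.47 ± 0.18), S1pr1 (1.34 ± 0.21), Txnip (1.32 ± 0.25) and Gadd45a (0.89 ± 0.19). Txnip missed the threshold without WT CSC pool 3 (limma, adjusted p = 0.0625) and Gadd45a without any 1 of the WT CSC pools (0.0709 to 0.0939). Igfbp7 (1.53 ± 0.19) and Stc1 (1.51 ± 0.26) were higher, and Skp2 (-1.43 ± 0.20) was lower; these 3 passed in all 6 fits without 1 WT pool. Prmt1 (-1.37 ± 0.29) was lower and Socs3 (1.20 ± 0.29) higher, and both missed the threshold without any 1 of the WT CSC pools (0.0659 to 0.117). Socs3 differed by 0.53 with the mean of its probesets (limma, adjusted p = 0.554), and it also missed with centred arrays (0.0702) and without the filter (0.0602). In this pool 11 of 14 endothelial markers were higher than in WT CSC (median 1.77; mean level 9.87 against 7.72 to 8.17), with 6 of 12 fibro-adipogenic and 2 of 11 macrophage markers, and their part in the Igf1 value was not tested.

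In Rptor KO CSC 0 of 10 members passed against WT CSC, beside 3.90% of all genes. Igf1 was the nearest, higher by 1.13 ± 0.27 (SE; limma, adjusted p = 0.0574). It passed with quantile normalization (0.0318), with the random block (0.00164) and without WT QSC pool 1, 2 or 3 (0.0458, 0.0422 and 0.0239). The WT QSC pools are not part of this difference and bear on its test through the shared spread. Igf1 missed the threshold without any 1 of the 3 WT CSC pools, with adjusted p up to 0.166 (limma). Of the 10 other alternatives it missed it in 8, with adjusted p up to 0.0786. Irs2 was higher by 0.81 ± 0.25 (limma, unadjusted p = 0.00894, adjusted p = 0.105) and Foxo1 by 0.76 ± 0.27 (unadjusted p = 0.0205, adjusted p = 0.162), and both passed with the random block (0.0158 and 0.0284). The random block counts technical arrays as observations, those of this single pool included. With Igf1, these were 3 members at an unadjusted p under 0.05, beside 19.8% of all genes. The Rptor KO CSC level of these 3 genes lay above all 3 WT CSC pools. The levels of Foxo3, Igf1r and Igfbp4 did so too, while Foxo4 lay below them. How many of all genes were so placed was not computed. Listed genes that passed were Prdx3 (-1.25 ± 0.19), Bnip3 (-1.15 ± 0.21) and Skp2 (-1.13 ± 0.20), all lower, and Igfbp7 (0.88 ± 0.19) and Inpp5d (0.86 ± 0.19), both higher; each missed the threshold without WT CSC pool 2 (limma, adjusted p from 0.0552 to 0.122) and without pool 3 (0.0567 to 0.141), and all but Prdx3 without pool 1 (0.0516 to 0.0877). With each array centred on its median, Igfbp7 (0.0670) and Inpp5d (0.0620) missed it as well, and Inpp5d missed it with quantile normalization (0.0552). Macrophage markers were higher in 9 of 11 tested (median 1.70). The mean level of all 14 listed, with those under the filter, was 8.70 against 7.08 to 7.21 in WT CSC. Inpp5d, which encodes the phosphatase SHIP1, is a gene of blood cells, and the part of macrophage RNA in the Igf1 and Inpp5d values was not tested.

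The genes whose profile over the 12 pools was closest to that of each member called at least once were found by the root mean square difference of centred log2 levels among 13955 other genes. For Foxo1 they were Oasl2 (0.09), Abca3 (0.10) and Gab3 (0.11), against a standard deviation of 0.40 for Foxo1 itself. For Irs2 they were Zbtb4 (0.09), Bmp6 (0.12) and Foxo1 (0.12), so that another member was among the 3 nearest. For Igf1 they were Tmem140 (0.24), Tek (0.25) and Swt1 (0.28), and for Igfbp4 Cacna1h (0.19), Tmem178b (0.20) and Adamts10 (0.20). Tek, the angiopoietin receptor, is an endothelial gene that satellite cells also express. These are descriptions over pools that share the WT groups, with no test.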

How the data were processed

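The deposited log2 values are probeset signals computed by the authors with RMA; the submitters' processing notes name Affymetrix Expression Console. Its version and the genome build: not given in the sources used here. Of 35556 probesets, 21789 have 1 gene symbol, 1621 several and 12146 are not listed in the platform table. Technical arrays were averaged per pool (9 pools with 2 arrays, 3 with 1). limma 3.58.1 in R 4.3.3 fitted a mean per group with lmFit and eBayes over 13956 genes above the 30th percentile, with Benjamini-Hochberg adjustment over all of them and a threshold of 0.05. The 4 residual degrees of freedom come from WT QSC and WT CSC. The fit was tested on simulated data of independent normal values for WT CSC against WT QSC. The number of pools limits the precision.

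The members, lists, comparisons and rules were chosen with earlier results of these data known. Named listed genes are all those called where a list had at most 4, otherwise the 4 with the smallest p; Bnip3 and Gadd45b among the FoxO targets were added after their values were seen. Signed differences are given for members called or with an unadjusted p under 0.05, and for the receptors, adaptors and FoxO genes in the TSC1 and Rptor knockouts. Widest differences elsewhere were picked after their values were seen. Alternatives were quantile normalization, centring, other filters, the mean of probesets, trend and robust options, a random block for the pool, the first arrays alone, the WT pools alone, a replicate block and leaving out each WT pool. Leaving out 3 second arrays was chosen after seeing the data. Figures were drawn with matplotlib 3.10.9.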

Additional observations from a re-analysis of the deposited data

How the results depend on the processing

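Each count of members called was recomputed under every alternative. In alert WT cells it was 3 to 5 under the alternatives that kept all pools and 1 to 5 when 1 WT pool was left out: Igf1 alone passed without WT CSC pool 2 or pool 3, fits in which the calls over all genes also fell, from 2510 to 1181 at the lowest. For WT CSC at 28 days against 2.5 days the count of 1 became 0 with arrays centred on their medians, 0 without the filter, 2 with the pool as a random block, and ran from 0 to 1 without 1 pool. The random block also gave 1 member for TSC1 KO against Rptor KO, 3 for Rptor KO CSC and 3 for cMet KO CSC against WT CSC, and 1 for each difference of responses, where the counts were 0, 0, 1, 0 and 0. These added calls come from a fit that counts technical arrays as observations, with no more pools. Quantile normalization gave 1 for Rptor KO CSC. Without 1 pool the counts ran from 0 to 1 for Rptor KO CSC and from 0 to 1 for cMet KO CSC. Leaving out the 3 second arrays described above, an alternative chosen after seeing the data, kept the same 4 genes called in alert WT cells. The 4 called differences kept their direction under each of these alternatives.

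Whether replicate numbers pair the WT samples is not given in the labels. Same-numbered pools correlated at 0.32, -0.03 and -0.03 in their deviations, for replicate 1, 2 and 3. Pool 1 was the highest in both WT groups for Foxo1, Foxo3, Igf1r, Insr, Irs1, Irs2 and Igfbp5, but not for Foxo4, Igf1 and Igfbp4. A shared effect of replicate 1 is thus not excluded. The titles of the single pools carry no biological replicate number. In the replicate block they were placed with the WT pools of number 1, and its values for single pools rest on that placing. The replicate block gave 5 members in alert WT cells, adding Insr (limma, adjusted p = 0.0360), and the same counts of members as without it in the other 12 comparisons. Among named listed genes it ended the calls of Igfbp7 (limma, adjusted p = 0.0878) and Inpp5d (0.0760) in Rptor KO CSC against WT CSC. In cMet KO CSC against WT CSC it ended those of Socs3 (0.0830), Gadd45a (0.0588), Gadd45b (0.0839) and Prdx3 (0.0615). Signs that turned were all of differences not called. In TSC1 KO QSC the block gave -0.053 for Foxo1, -0.23 for Foxo3, -0.15 for Insr and -0.11 for Irs2; in Rptor KO QSC it gave -0.093 for Foxo1, -0.056 for Foxo3 and -0.16 for Irs1. Quantile normalization gave -0.027 for Insr in TSC1 KO and 0.074 for Igf1r in Rptor KO. The mean of probesets gave 0.017 for Insr and -0.024 for Irs1 in Rptor KO. Leaving out 1 pool gave -0.067 to 0.34 for Foxo3 and -0.039 to 0.15 for Insr in TSC1 KO, and -0.15 to 0.058 for Igf1r and -0.24 to 0.090 for Rptor in Rptor KO.

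The pools limit what could be seen: 6 of the 8 groups have 1, the median SE of a single pool against WT QSC was 0.22, and a member not called there is not shown to be unchanged.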
